A study of Mus musculus with 14 samples.

Results

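Metallothioneins and the zinc transporters that act beside them were measured in mouse colon as a family of 9 genes, out of 19096 genes named on the arrays. The members are the metallothionein genes *Mt1*, *Mt2*, *Mt3* and *Mt4*, the regulator gene *Mtf1*, the zinc exporter genes *Slc30a1* and *Slc30a10*, and the zinc importer genes *Slc39a4* and *Slc39a5*. They were chosen by their measured values on these same arrays, so their levels and differences are given as a description, without a test. Colon RNA came from male C57BL/6 mice on chow diet whose adrenal glands had been removed (ADX), so that no corticosterone from the adrenal glands was present. ADX was done at 6 to 8 weeks of age, 2 weeks before injection, and the mice were 8 to 10 weeks old, ages taken from the sample labels. The Methods of the paper give an older age at ADX, and the difference was not resolved. Flox mice carry GR fl/fl, a glucocorticoid receptor gene flanked by loxP sites, and keep the receptor. GR iKO mice carry GR fl/fl and Villin-cre, a transgene active in intestinal epithelium from before birth, so the receptor gene is deleted in epithelial cells and kept in the muscle, stromal and immune cells of the same colon. Dexamethasone (DEX), a synthetic glucocorticoid, was injected at 1 mg/kg, control mice received PBS, and colons were taken 6 hours later. The 14 arrays, each from 1 mouse, are 4 of Flox mice given PBS, 3 of Flox mice given DEX, 3 of GR iKO mice given PBS and 4 of GR iKO mice given DEX.

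Metallothioneins are small proteins rich in cysteine that bind zinc and copper in the cell, and *Mt1* and *Mt2* are induced by metals, glucocorticoids and stress. MTF1, the protein of *Mtf1*, is a zinc-sensing transcription factor that binds metal response elements in the promoters of *Mt1*, *Mt2* and *Slc30a1*. ZnT1, the protein of *Slc30a1*, moves zinc out of the cell, and the intestinal epithelium takes zinc up from the lumen through ZIP4, the protein of *Slc39a4*. Glucocorticoid receptor elements upstream of the mouse *Mt1* and *Mt2* genes are a long-known route by which glucocorticoids raise their transcription.

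Values are log2 spot intensities from 1-color Agilent arrays minus the 75th percentile of the array, so that 0 is the level of that percentile. A difference of 1 is a 2-fold difference. The 75th percentile lay between 566 and 774 intensity units, and 28257 to 30496 of 41174 probes per array were well above background. The number of arrays limits the precision of every value. Each group has its own slide and its own scan, and neither can be told apart from the group. The called probes were also not spread evenly over the array. With DEX in GR iKO mice, 1395 of the 1724 probes called higher (80.9%) lay on rows 355 to 532. Between the genotypes under PBS, 24 of the 27 probes called higher lay on rows 178 to 354 and 26 of the 28 called lower lay on rows 355 to 532.

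All 9 genes are on the array, with 15 probes and 24 spots. *Mt2*, *Mt3*, *Slc39a4* and *Slc39a5* have 1 probe each and the other 5 genes have more, and probe 1 of a gene is the one with the higher mean signal. Of the 15 probes, 12 were well above background on all 14 arrays, as were 62.5% of all probes on the array, and each of the 9 genes has such a probe. The other 3 are *Mt4* probe 2 (well above background on 5 arrays), *Slc30a10* probe 2 (on 13 arrays) and *Mtf1* probe 3 (on 0 arrays). *Mt1* probe 1 is printed as 10 spots between rows 11 and 482, and within an array these spots varied with an SD of 0.0164 to 0.0714. Of the other probes, 5 lie on rows 355 to 532: *Mt3*, *Mt4* probe 1, *Mtf1* probe 1, *Slc30a1* probe 1 and *Slc30a10* probe 2. Fewer cells of a type and less RNA per cell cannot be told apart in whole colon.

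The receptor transcript was lower in GR iKO colon, which also holds cells that keep it. The brightest of 4 *Nr3c1* probes averaged 1.40 ± 0.09 (SD, n = 4) and 1.20 ± 0.12 (SD, n = 3) for Flox with PBS and DEX, and 0.50 ± 0.26 (SD, n = 3) and −0.05 ± 0.08 (SD, n = 4) for GR iKO with PBS and DEX. Its groups of the 2 genotypes did not overlap under either treatment, nor did those of the 2 next brightest probes. The dimmest probe differed between the genotypes by −1.07 (SE 0.49) under PBS, without overlap. Under DEX it differed by −0.35 (SE 0.49), with overlap through GR iKO mouse 2 (−2.54).

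*Mt1* was the member with the widest separation of the genotypes, and the separation was present without DEX. In Flox mice given PBS, probe 1 read 4.19, 3.34, 4.11 and 3.84 in mice 1 to 4. In Flox mice given DEX it read 5.86, 5.48 and 5.19 in mice 1, 2 and 4. In GR iKO mice it read 6.40, 6.61 and 6.43 with PBS in mice 2, 3 and 4, and 6.30, 6.59, 6.37 and 6.72 with DEX in mice 1 to 4. Every GR iKO mouse, with or without DEX, was above every Flox mouse, and the 2 GR iKO groups overlapped. The group means were 3.87 ± 0.38 (SD, n = 4) and 5.51 ± 0.34 (SD, n = 3) in Flox mice with PBS and DEX, and 6.48 ± 0.11 (SD, n = 3) and 6.50 ± 0.19 (SD, n = 4) in GR iKO mice. The order of the levels was therefore GR iKO with DEX and GR iKO with PBS, which did not differ beyond their spread, then Flox with DEX, then Flox with PBS. DEX went with a fitted *Mt1* difference of 1.64 (SE 0.21) in Flox mice, or 3.12-fold, and of 0.02 (SE 0.21) in GR iKO mice. GR iKO mice were above Flox mice by 2.61 (SE 0.21), or 6.10-fold, under PBS and by 0.99 (SE 0.21), or 1.98-fold, under DEX.

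A second *Mt1* probe, which is annotated to a predicted transcript of the gene, gave the same order of the 4 groups with a larger gap between genotypes. Its means were −2.45 ± 0.58 (SD, n = 4) and −1.06 ± 0.66 (SD, n = 3) for Flox with PBS and DEX, and 1.45 ± 0.46 (SD, n = 3) and 1.92 ± 0.28 (SD, n = 4) for GR iKO with PBS and DEX. The lowest GR iKO mouse read 0.92 and the highest Flox mouse −0.54. The fitted genotype difference of this probe was 3.90 (SE 0.36) under PBS and 2.99 (SE 0.36) under DEX, and the DEX difference was 1.38 (SE 0.36) in Flox mice, where the PBS and DEX groups overlapped, and 0.47 (SE 0.36) in GR iKO mice, or 0.21 without GR iKO mouse 4 given PBS. Across the 14 arrays the 2 *Mt1* probes had r = 0.946. Some Cre transgenes carry a stretch of the mouse *Mt1* gene as a polyadenylation sequence. Whether the Villin-cre transgene used here does is not given in the sources read, and its part in the *Mt1* signal was not tested.

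*Mt2*, the neighbor of *Mt1*, was highest in Flox mice given DEX. With PBS, it read 4.68, 3.62, 3.87 and 4.46 in Flox mice 1 to 4 and 4.83 and 5.25 in GR iKO mice 2 and 4, with mouse 3 between them. With DEX, it read 6.90, 6.68 and 6.44 in Flox mice 1, 2 and 4 and 5.90, 5.78, 5.76 and 6.62 in GR iKO mice 1 to 4. Each DEX group was above the PBS group of its genotype without overlap, and the 2 DEX groups overlapped through GR iKO mouse 4. The group means were 4.16 ± 0.50 (SD, n = 4), 6.67 ± 0.23 (SD, n = 3), 5.03 ± 0.21 (SD, n = 3) and 6.02 ± 0.41 (SD, n = 4) for Flox with PBS, Flox with DEX, GR iKO with PBS and GR iKO with DEX. From the highest, the order was Flox with DEX, GR iKO with DEX, GR iKO with PBS and Flox with PBS. Only the 2 DEX groups among these neighbors overlapped, and only through GR iKO mouse 4. The fitted DEX difference of *Mt2* was 2.52 (SE 0.27) in Flox mice, or 5.72-fold, and 0.99 (SE 0.27) in GR iKO mice, or 1.99-fold. Between the genotypes, GR iKO mice differed from Flox mice by 0.87 (SE 0.27) under PBS and by −0.65 (SE 0.27) under DEX. Without GR iKO mouse 4 given DEX the latter was −0.86.

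**Figure D1:**
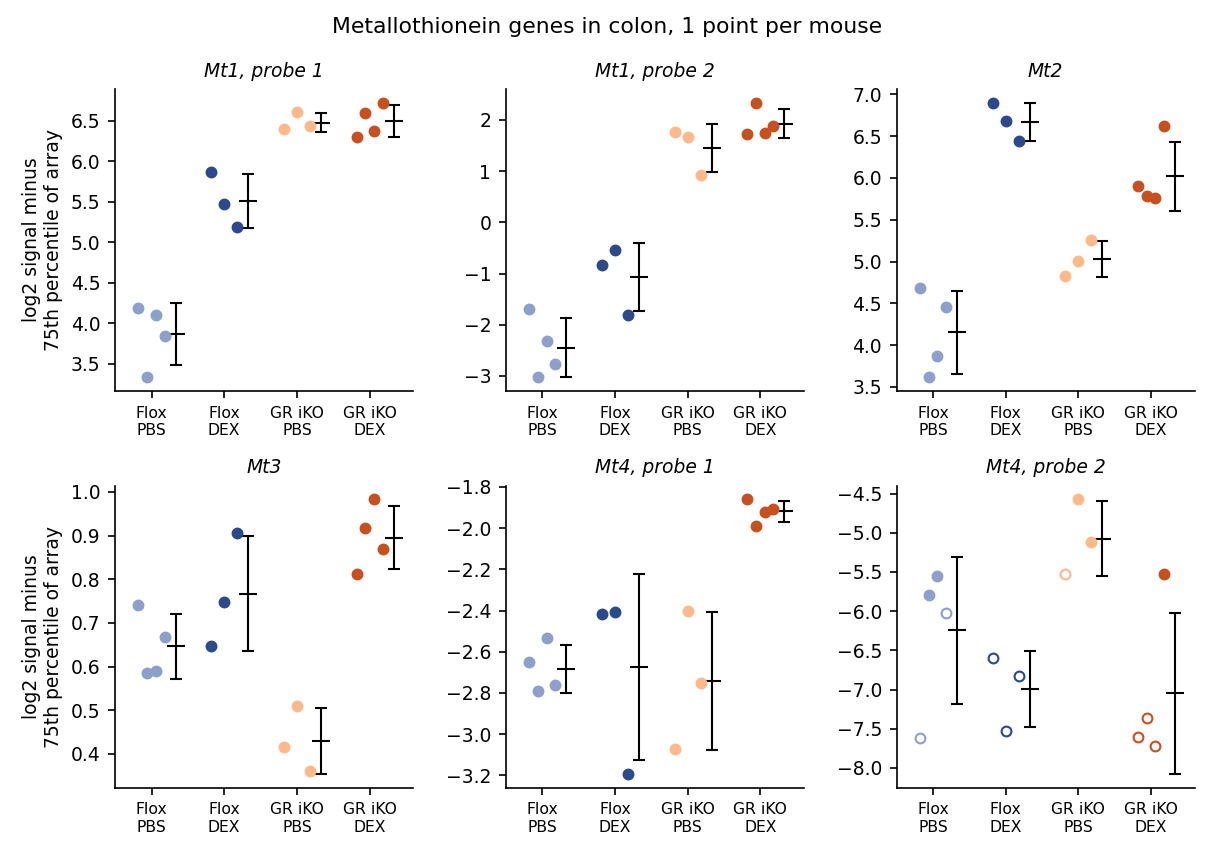
Log2 signal minus the 75th percentile of the array (vertical axis) for each metallothionein probe in the 4 groups (horizontal axis), with 1 point per mouse, open where the probe was not well above background, and bars for the mean and SD. For *Mt1* probe 1 all 7 GR iKO mice lie between 6.30 and 6.72, above the 7 Flox mice, and for *Mt2* the 3 Flox mice given DEX lie between 6.44 and 6.90.

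*Mt1* and *Mt2* thus had different orders of the groups on the same arrays, and their difference within an array does not depend on a scaling that shifts the whole array. The log2 *Mt1* signal minus the log2 *Mt2* signal was −0.50, −0.28, 0.24 and −0.61 in Flox mice 1 to 4 given PBS and −1.03, −1.20 and −1.25 in Flox mice 1, 2 and 4 given DEX. For GR iKO it came to 1.57, 1.61 and 1.18 with PBS in mice 2, 3 and 4 and 0.40, 0.81, 0.60 and 0.10 with DEX in mice 1 to 4. The zero of this scale depends on the probes, and the changes between arrays given here are those of *Mt1* probe 1 against *Mt2*. With DEX the balance moved toward *Mt2* in both genotypes, by −0.87 for Flox and −0.97 for GR iKO. In Flox mice both genes were higher with DEX (*Mt1* 1.64, *Mt2* 2.52). In GR iKO mice *Mt2* was higher by 0.99, and *Mt1* differed by 0.02. Set against Flox mice, the balance in GR iKO mice lay toward *Mt1* by 1.74 under PBS and 1.64 under DEX. Any part of the Cre transgene in the *Mt1* signal, which was not tested, would enter this balance as well. The group means were −0.29 ± 0.38 (SD, n = 4), −1.16 ± 0.11 (SD, n = 3), 1.45 ± 0.24 (SD, n = 3) and 0.48 ± 0.30 (SD, n = 4) in the order Flox PBS, Flox DEX, GR iKO PBS and GR iKO DEX, and the only groups that overlapped were Flox PBS and GR iKO DEX. Under the 7 other settings of the fit for which the balance was computed, the DEX shift was −0.88 to −0.78 for Flox and −0.97 to −0.92 for GR iKO, and the genotype shift was 1.71 to 1.76 under PBS and 1.55 to 1.66 under DEX. The sizes of these shifts depend on the *Mt1* probe. *Mt1* probe 2 had DEX differences of 1.38 for Flox and 0.47 for GR iKO, beside 2.52 and 0.99 for *Mt2*. With that probe the DEX shift keeps its direction and is larger in Flox than in GR iKO mice. Its genotype differences were 3.90 under PBS and 2.99 under DEX, beside 0.87 and −0.65 for *Mt2*, which is a larger genotype shift. An unequal change of the 2 genes does not show that either of them stayed the same. Across all 14 arrays *Mt1* and *Mt2* had r = 0.629, a value that mixes the 4 groups.

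**Figure D2:**
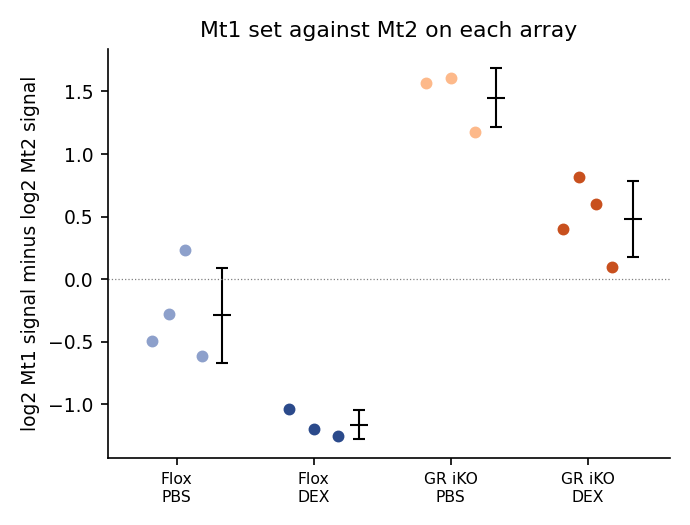
Log2 *Mt1* signal (probe 1) minus log2 *Mt2* signal on each array (vertical axis) in the 4 groups (horizontal axis), with 1 point per mouse and bars for the mean and SD. Flox mice given DEX lie lowest, between −1.25 and −1.03, and GR iKO mice given PBS lie highest, between 1.18 and 1.61.

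The difference between the DEX responses of the genotypes (GR iKO minus Flox) was −1.62 (SE 0.30) for *Mt1* probe 1, −0.91 (SE 0.51) for *Mt1* probe 2 and −1.52 (SE 0.39) for *Mt2*. For *Mt1*, much of this lay in the PBS groups, where GR iKO mice already read 6.40 or more. For *Mt2*, the PBS groups differed by 0.87 and the DEX groups by −0.65.

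The 4 metallothionein genes lie side by side on mouse chromosome 8, in the order *Mt4*, *Mt3*, *Mt2* and *Mt1*, with the long noncoding RNA gene *Gm39227* between *Mt3* and *Mt2* in the gene table used. Of the 9 member genes, 8 have an entry in a RefSeq table of promoter sequences (assembly GRCm38.p6), which covers 250 bases before and 50 bases after each annotated start, and *Slc39a4* is the other. The cores of the metal response element, TGCACNC and TGCGCNC, were searched on both strands, and on the reverse strand a match reads GNGTGCA or GNGCGCA. The half-site AGAACA of the glucocorticoid response element was searched in the same way. Of 32841 promoters in the table, 25.7% hold at least 1 match to either core, 7.12% at least 2, 1.97% at least 3 and 0.518% at least 4, and 19.0% hold the half-site. *Mt2* holds 4 core matches, *Mt1* and *Slc30a10* hold 3 each (2 of those in *Slc30a10* overlap), *Slc30a1* holds 2, *Mt3*, *Mt4* and the first of 2 *Slc39a5* entries hold 1, and *Mtf1* holds 0. The half-site was found only in the *Mtf1* window, once. A match is a description of letters in the window, and no match says nothing of sites elsewhere. The promoters of *Mt2* and *Mt3* are shown because these neighbors on the chromosome differed in their signal with DEX, with core matches in capitals. The sequences run 5′ to 3′ on the plus strand, *Mt2* at chr8:94172368-94172617 and *Mt3* at chr8:94152357-94152606, each ending at the base before the annotated start.
*Mt2*: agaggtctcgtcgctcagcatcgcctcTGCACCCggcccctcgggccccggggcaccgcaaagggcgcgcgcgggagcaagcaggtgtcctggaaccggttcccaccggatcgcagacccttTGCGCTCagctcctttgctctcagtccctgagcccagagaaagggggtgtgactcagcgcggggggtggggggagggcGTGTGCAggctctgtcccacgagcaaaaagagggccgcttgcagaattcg
*Mt3*: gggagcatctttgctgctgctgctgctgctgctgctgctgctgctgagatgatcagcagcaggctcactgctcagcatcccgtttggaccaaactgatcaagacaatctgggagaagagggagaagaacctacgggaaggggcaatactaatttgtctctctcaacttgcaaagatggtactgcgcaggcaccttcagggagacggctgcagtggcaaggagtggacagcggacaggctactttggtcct
The *Mt2* stretch holds 3 of its core matches, and the fourth begins 4 bases after the annotated start. The *Mt3* stretch holds 0, and its match begins 27 bases after the start. The window of *Mt1* overlaps the gene model of *Mt1* itself, so only the 25 bases that hold 2 of its matches are shown (chr8:94179091-94179115, plus strand, core matches in capitals), which begin 2 bases after the annotated start.
*Mt1*: TGCACTCcgcccgaaaagTGCGCTC

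*Mt3* and *Mt4* are known for expression in brain and in stratified squamous epithelium. *Mt3* read 0.36 to 0.98 over all 14 arrays, with group means of 0.65 ± 0.07 (SD, n = 4), 0.77 ± 0.13 (SD, n = 3), 0.43 ± 0.08 (SD, n = 3) and 0.90 ± 0.07 (SD, n = 4) in the order Flox PBS, Flox DEX, GR iKO PBS and GR iKO DEX. Its fitted DEX difference was 0.12 (SE 0.09) in Flox mice, with overlapping groups, and 0.47 (SE 0.09) in GR iKO mice, with separate groups. *Mt4* probe 1 read −2.68 ± 0.12 (SD, n = 4), −2.67 ± 0.45 (SD, n = 3) and −2.74 ± 0.34 (SD, n = 3) in the first 3 of these groups, which overlapped, and −1.92 ± 0.05 (SD, n = 4) in GR iKO mice given DEX, above all of them. Both probes lie on rows 355 to 532, which held 80.9% of the probes called higher by DEX against PBS for GR iKO. With 3 blocks of array rows normalized separately, the DEX difference in GR iKO mice was 0.52 for *Mt3* and 0.61 for *Mt4* probe 1, against 0.82 for *Mt4* probe 1 without it. With normexp background correction, *Mt4* probe 1 differed between the genotypes under DEX by 0.14 in place of 0.75. Its DEX difference in Flox mice was 0.43 in place of 0.01, and its difference of the responses 0.24 in place of 0.81. The dim *Mt4* probe 2 went the other way with DEX in GR iKO mice, with a difference of −1.98 (SE 0.58) and overlapping groups, and with normexp background correction the difference was −0.07. It was well above background on 2 of 3 arrays with PBS and 1 of 4 with DEX, so little can be read from it.

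*Slc30a10* was the zinc exporter gene with the widest range over the arrays. Its protein, ZnT10, is known as a manganese exporter of liver and intestine as well as a zinc transporter. In Flox mice, probe 1 read −1.54, −2.15, −0.56 and −1.58 with PBS in mice 1 to 4 and −3.63, −4.05 and −2.84 with DEX in mice 1, 2 and 4. In GR iKO mice it read −1.16, −0.78 and −1.04 with PBS in mice 2, 3 and 4 and −2.13, −1.82, −2.38 and −1.32 with DEX in mice 1 to 4. In each genotype every mouse given DEX was below every mouse given PBS, and Flox mice given DEX were below all other mice. The group means were −1.46 ± 0.66 (SD, n = 4), −3.51 ± 0.61 (SD, n = 3), −0.99 ± 0.19 (SD, n = 3) and −1.91 ± 0.46 (SD, n = 4) for Flox PBS, Flox DEX, GR iKO PBS and GR iKO DEX. From the highest, the order was GR iKO with PBS, Flox with PBS, GR iKO with DEX and Flox with DEX, and only the last neighbors were separate. The fitted DEX difference was −2.05 (SE 0.37) for Flox, a 4.13-fold lower signal, and −0.92 (SE 0.37) for GR iKO, a 1.89-fold lower signal. Between the genotypes the difference was 0.47 (SE 0.37) under PBS and 1.59 (SE 0.37) under DEX, and the DEX responses differed by 1.12 (SE 0.53), or by 0.04 with normexp background correction. The PBS value rests in part on single Flox mice given PBS. It is larger without mouse 3, which read −0.56, and smaller without mouse 2, which read −2.15.

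*Slc30a10* probe 2 had the same order of groups, with means of −3.44 ± 0.81 (SD, n = 4), −5.36 ± 0.71 (SD, n = 3), −2.65 ± 0.15 (SD, n = 3) and −4.08 ± 0.27 (SD, n = 4) for Flox PBS, Flox DEX, GR iKO PBS and GR iKO DEX. Its DEX differences were −1.92 (SE 0.40) in Flox mice, where it was well above background on 2 of 3 DEX arrays, and −1.43 (SE 0.40) in GR iKO mice. Its genotype differences were 0.79 (SE 0.40) under PBS and 1.28 (SE 0.40) under DEX. The 2 probes had r = 0.964 over the 14 arrays. The size of the differences of these dim probes rested on the background correction. With normexp background correction the DEX difference in Flox mice was −0.73 for probe 1 and 0.06 for probe 2, and the genotype difference under DEX was 0.38 and −0.35, so probe 2 turned in sign. Under that correction the median difference of all probes was 0.56 and 0.19 for the DEX comparisons of Flox and GR iKO, and −0.11 and −0.45 for the PBS and DEX comparisons of the genotypes, against 0.06, 0.09, 0.00 and 0.04 without it. Relative to this median, the normexp values of *Slc30a10* were −1.29 (probe 1) and −0.50 (probe 2) for the DEX comparison of Flox, −0.87 and −0.76 for that of GR iKO, and 0.83 and 0.10 for the genotypes with DEX. On the same relative scale, *Mt1* probe 1 differed by 0.90 and *Mt2* by 1.74 with DEX in Flox mice. Between the genotypes under DEX they differed by 1.62 and −0.03. Before the median was subtracted, the normexp values were 1.46 and 2.30, and 1.17 and −0.48. Without normexp they were 1.64 and 2.52, and 0.99 and −0.65. The bright *Slc39a4* had −0.20 with DEX in Flox mice without normexp, −0.34 with it and −0.89 relative to the median. The median shift was thus not shared by these bright probes, and the relative values are not corrected sizes for them.

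The promoter of *Slc30a10* is shown because both of its probes had a lower signal with DEX while *Mt2*, whose promoter holds matches to the same cores, had a higher one. With normexp background correction the DEX difference of *Slc30a10* probe 2 in Flox mice turned in sign. The *Slc30a10* promoter lies at chr1:185454598-185454847 (GRCm38.p6, plus strand) and ends at the base before the annotated start. Its core matches are in capitals, the first pair of which overlap.
*Slc30a10*: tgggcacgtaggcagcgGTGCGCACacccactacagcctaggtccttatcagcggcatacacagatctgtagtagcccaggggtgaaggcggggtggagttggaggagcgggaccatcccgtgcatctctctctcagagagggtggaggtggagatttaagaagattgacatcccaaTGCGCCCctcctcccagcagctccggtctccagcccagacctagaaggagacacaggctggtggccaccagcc

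*Slc30a1*, *Slc39a4*, *Slc39a5* and *Mtf1* showed no fitted difference of 0.5 or more in any of the 4 comparisons of groups. *Slc30a1*, whose protein is the zinc exporter of the cell surface, read 0.26 to 0.97 with probe 1 and −0.37 to 0.37 with probe 2 over all arrays. All 4 groups overlapped with their neighbors for both probes, and the fitted differences were 0.11 (SE 0.14) and 0.22 (SE 0.16) with DEX in Flox mice and 0.12 (SE 0.14) and 0.17 (SE 0.16) with DEX in GR iKO mice. *Slc39a4*, the importer gene, was bright in every mouse, from 6.13 to 6.89, with group means of 6.48 ± 0.03 (SD, n = 4), 6.28 ± 0.12 (SD, n = 3), 6.39 ± 0.43 (SD, n = 3) and 6.52 ± 0.24 (SD, n = 4) in the order Flox PBS, Flox DEX, GR iKO PBS and GR iKO DEX. The 3 Flox mice given DEX were below the 4 given PBS without overlap, by a fitted −0.20 (SE 0.18). GR iKO mouse 2 given PBS read 6.89 and set the mean of its group, and without it the difference between the genotypes under PBS was −0.35 in place of −0.10. *Slc39a5*, an importer gene known for its protein on the basolateral side of intestinal epithelium and in pancreas, read −0.11 to 0.71, and all its groups overlapped. The lowest *Slc39a5* value belonged to Flox mouse 4 given DEX, and Flox mice 1 and 2 given DEX read 0.62 and 0.53.

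*Mtf1* differences were small and rested in part on single mice. Probe 1 had means of −0.03 ± 0.14 (SD, n = 4) and −0.39 ± 0.10 (SD, n = 3) for Flox with PBS and DEX, without overlap (−0.36, SE 0.18), and of −0.19 ± 0.47 (SD, n = 3) and −0.34 ± 0.09 (SD, n = 4) in GR iKO mice. GR iKO mouse 2 given PBS read −0.73 against 0.10 and 0.06 in mice 3 and 4, and without it the DEX difference in GR iKO mice was −0.42 in place of −0.14. Probe 2 gave DEX differences of −0.23 (SE 0.16) for Flox, with overlapping groups, and −0.38 (SE 0.16) for GR iKO, with separate groups, and without Flox mouse 3 given PBS the Flox value was −0.09. The level of *Mtf1* RNA does not show the activity of the protein.

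**Figure D3:**
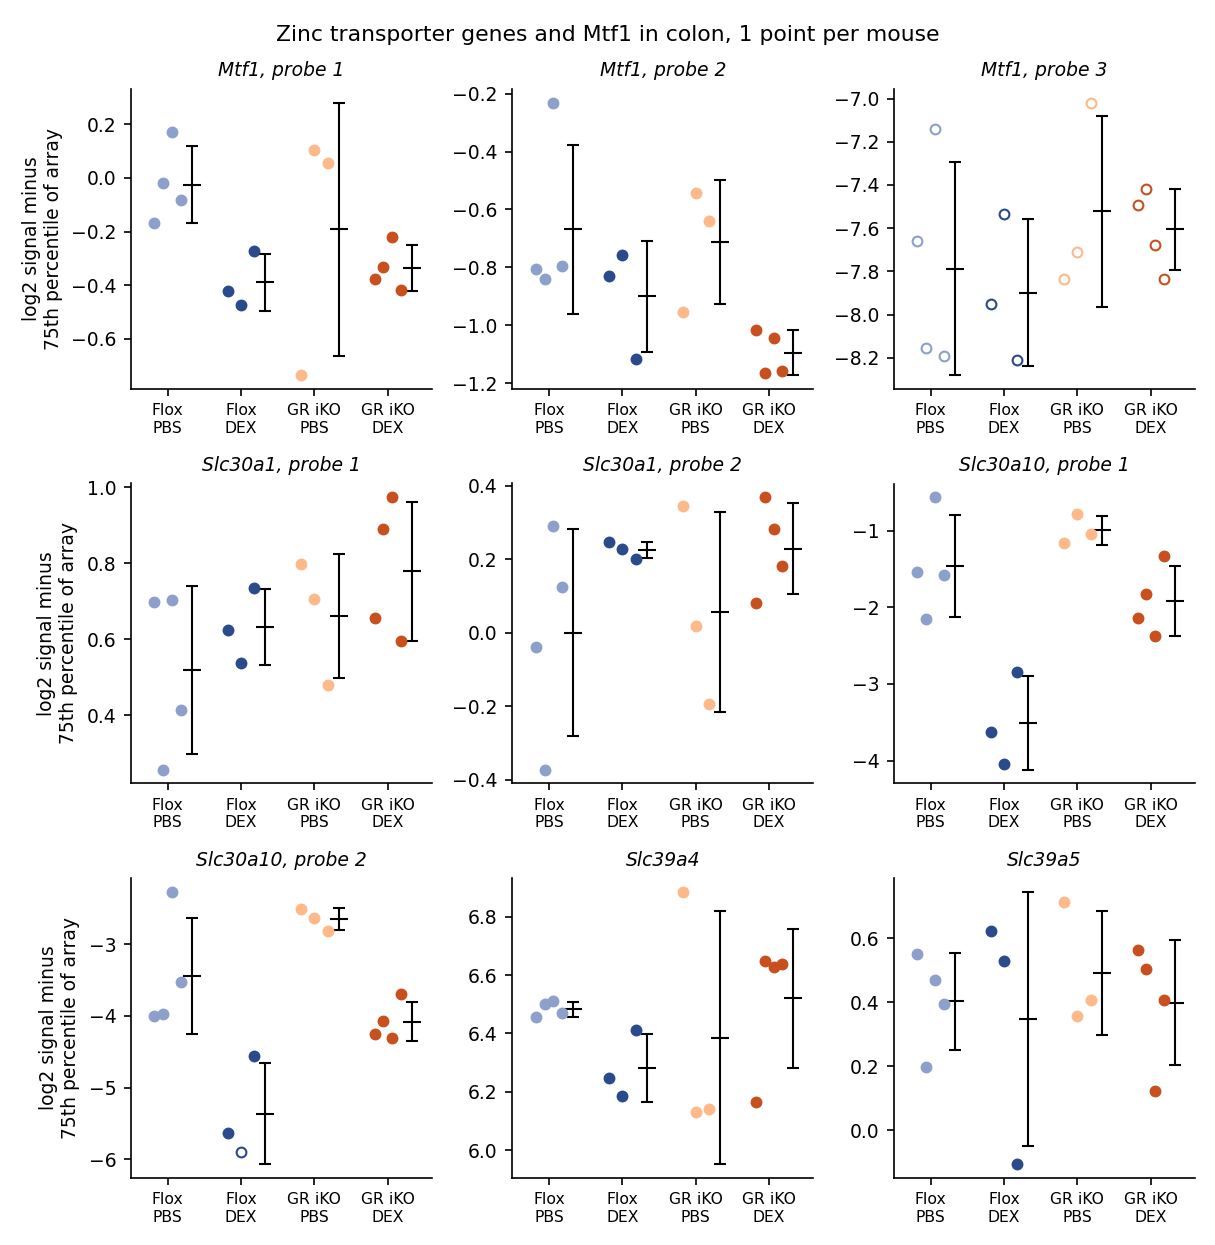
Log2 signal minus the 75th percentile of the array (vertical axis, a scale of its own in each panel) for the probes of *Mtf1* and the zinc transporter genes in the 4 groups (horizontal axis), with 1 point per mouse, open where the probe was not well above background, and bars for the mean and SD. *Slc30a10* probe 1 lies between −4.05 and −2.84 in Flox mice given DEX, below the other mice, and *Slc39a4* lies between 6.13 and 6.89 in all mice.

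Counts of member probes past the thresholds are given beside the share of all probes and nothing is read from them, because the members were chosen with these comparisons known. A probe was called at a limma adjusted p under 0.05 over all probes with at least a 2-fold difference. With DEX in Flox mice, 4 of 15 probes of 3 genes were called (1.57% of all probes), 2 higher (0.782%) and 2 lower (0.787%). The DEX comparison of GR iKO called 2 (5.01% of all probes), 0 higher (4.19%) and 2 lower (0.823%). Between the genotypes, 2 probes of *Mt1* were called under PBS (0.134%), 2 higher (0.0656%) and 0 lower (0.068%), and 1 was called under DEX (0.16%), 1 higher (0.0874%) and 0 lower (0.0729%). For the difference of the responses 0 were called (0.221%), 0 higher (0.182%) and 0 lower (0.0389%). Without a test, 5, 2, 3, 3 and 4 member probes had a fitted difference of at least 2-fold in these 5 comparisons, against 6.35%, 9.43%, 4.40%, 4.45% and 9.57% of all probes. Groups did not overlap for 6 probes in the DEX comparison of Flox (20.2% of all probes), 6 in that of GR iKO (25.6%), 5 between genotypes under PBS (6.87%) and 5 under DEX (14.5%). The median fitted difference of the 15 probes was −0.05, 0.02, 0.14 and 0.15 in these 4 comparisons, against 0.06, 0.09, 0.00 and 0.04 over all probes.

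**Figure D4:**
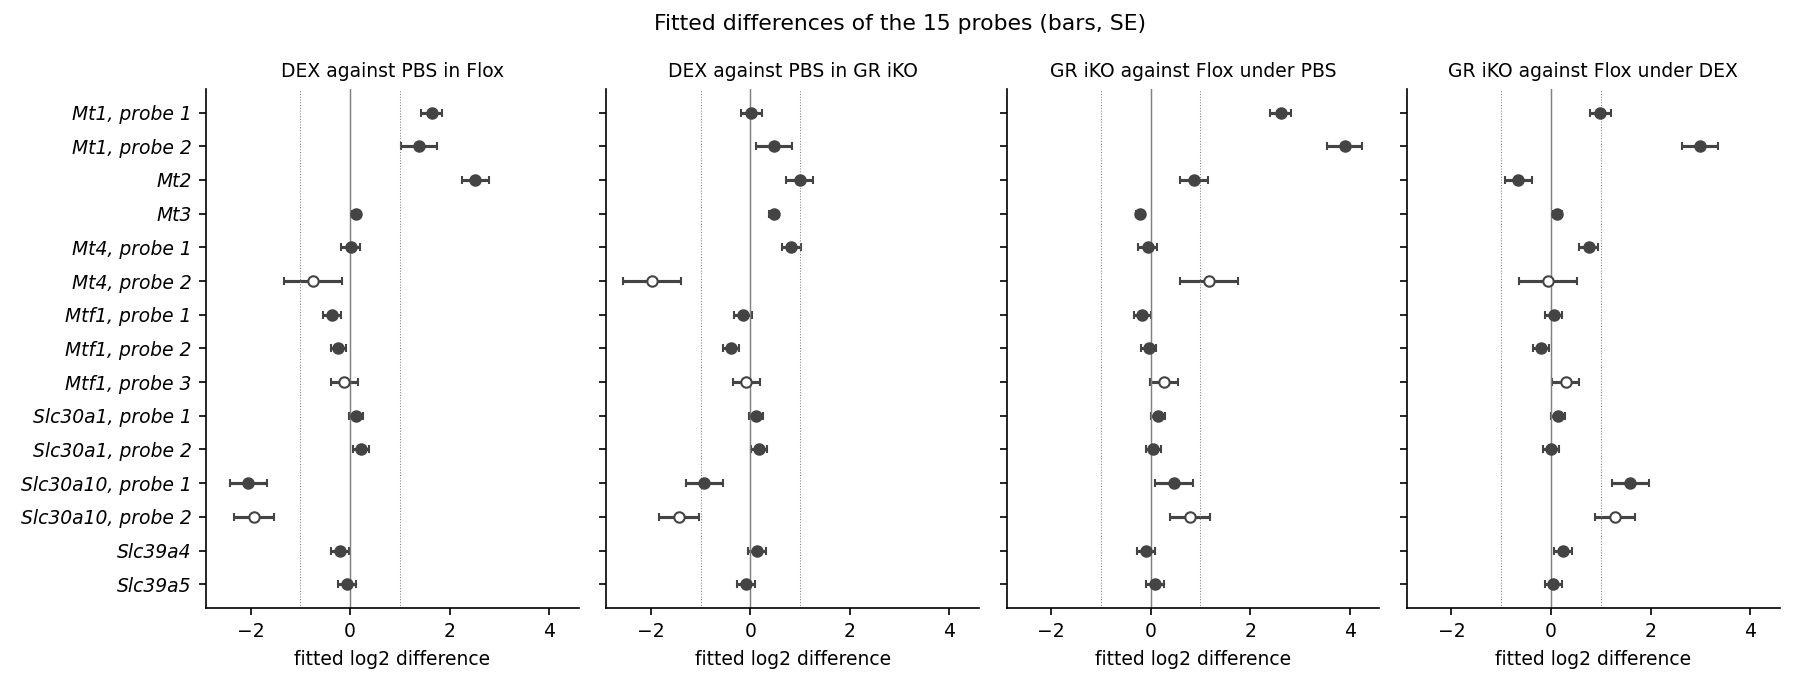
Fitted log2 differences (horizontal axis) of the 15 member probes (vertical axis) in the 4 comparisons of groups, with bars for the SE, open points for probes not well above background on all 14 arrays and dotted lines at 2-fold. *Mt1* probe 2 reaches 3.90 between the genotypes under PBS, and *Slc30a10* probe 1 reaches −2.05 with DEX in Flox mice (−0.73 with normexp background correction, under which *Slc30a10* probe 2 changes sign).

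Other genes of metal handling were examined in 4 lists. They hold the other zinc exporter genes (8 genes), the other zinc importer genes (12), genes of copper transport and its chaperones (9) and genes of iron transport and storage (8), and all 37 are on the array with 54 probes, 46 of them well above background on all arrays. With DEX in Flox mice limma called 1 of 54 probes (1.57% of all probes on the array were called), and it was lower, with 19 probes at an unadjusted p under 0.05 (19.0% of all probes). With DEX in GR iKO mice it called 3 (5.01% of all probes), 2 higher and 1 lower, with 17 at an unadjusted p under 0.05 (27.7%). No probe was called for the genotypes with PBS or with DEX or for the difference of the responses, with 5, 5 and 3 probes at an unadjusted p under 0.05 (7.79%, 13.6% and 12.1% of all probes). None of the 15 probes of zinc importer genes and none of the 14 of copper genes was called in any comparison, and 1 of 12 probes of zinc exporter genes was. The median differences of the 54 probes were −0.03 and 0.04 for the DEX comparisons of Flox and GR iKO, and −0.02 and −0.01 for the genotypes with PBS and with DEX.

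*Slc40a1*, which encodes the iron exporter ferroportin, fell with DEX in Flox mice. It read 3.38, 2.54, 3.60 and 3.33 in Flox mice 1 to 4 given PBS and 1.85, 2.47 and 2.22 in Flox mice 1, 2 and 4 given DEX, a difference of −1.03 (SE 0.23, limma adjusted p = 0.0329). In GR iKO mice it read 3.71, 4.04 and 3.99 with PBS and 3.04, 2.71, 3.01 and 2.95 with DEX, a difference of −0.98 (SE 0.23, limma adjusted p = 0.0186) that is just under 2-fold. The 2 responses differed by 0.05 (SE 0.32, limma adjusted p = 0.98). In Flox mice the call was lost with normexp background correction (−1.15, limma adjusted p = 0.163), with the replicate number as a block (−0.97, adjusted p = 0.0753), and without any single array of Flox PBS mice 1, 3 and 4 or Flox DEX mice 1, 2 and 4. With each array left out in turn the difference ran from −1.26 to −0.87. *Cybrd1*, a ferric reductase of the brush border, was called with DEX in GR iKO mice in opposite directions by 2 of its 3 probes, at −1.06 (SE 0.29, limma adjusted p = 0.0338) for the brightest probe and 1.35 (SE 0.36, adjusted p = 0.0334) for the next, which was well above background on 0 of 3 arrays with PBS. With 3 blocks of array rows normalized separately the second value was 0.49 (limma adjusted p = 0.346). That value was also not called with normexp (0.48, limma adjusted p = 0.881), quantile normalization (adjusted p = 0.0970), the deposited log2 table (adjusted p = 0.0980) or the replicate block (adjusted p = 0.0568). The same held without GR iKO PBS mouse 3 or 4 or any GR iKO DEX mouse. The first value was not called with normexp background correction (−0.64, limma adjusted p = 0.673), with the replicate number as a block (−0.97, adjusted p = 0.0704) or without GR iKO PBS mouse 3 or 4 or any GR iKO DEX mouse. *Slc30a3*, an exporter gene known from synaptic vesicles, was called higher in GR iKO mice with DEX (limma adjusted p = 0.0234). It was not well above background on any array, so no size of the difference is given. It was not called with normexp background correction (limma adjusted p = 0.881) or without GR iKO PBS mouse 3 or 4 or GR iKO DEX mouse 2 or 3. *Slc30a2* with DEX in Flox mice (1.28, SE 0.45, limma adjusted p = 0.147) and *Tfrc*, the transferrin receptor gene (1.05, SE 0.40, adjusted p = 0.177), were not called. Both were higher in Flox DEX mice 1 and 2 (*Slc30a2* −3.60 and −3.94, *Tfrc* 3.66 and 3.49), which had exocrine pancreas marker sums of 1747 and 2029, than in mouse 4 (−5.07 and 2.41), which had a sum of 16.2. Flox PBS mouse 2, with a sum of 644, read −5.23 and 2.32, near mouse 1 of its group (−5.39 and 2.24), which had a sum of 7.88. Among GR iKO mice given DEX, mouse 1, with the lowest sum (28.6), had the lowest *Tfrc* value (1.73). Mice 2, 3 and 4 of that group, with sums of 216, 47.8 and 135, read 3.24, 3.32 and 2.99. The part of those markers was not tested. The dimmer *Heph* probe had a difference of the responses of 0.37 (SE 0.20, limma adjusted p = 0.496). The brighter *Heph* probe averaged 2.85 and 2.97 for Flox with PBS and DEX, and 2.85 and 2.98 for GR iKO, nearly the same response in both.

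**Figure D5:**
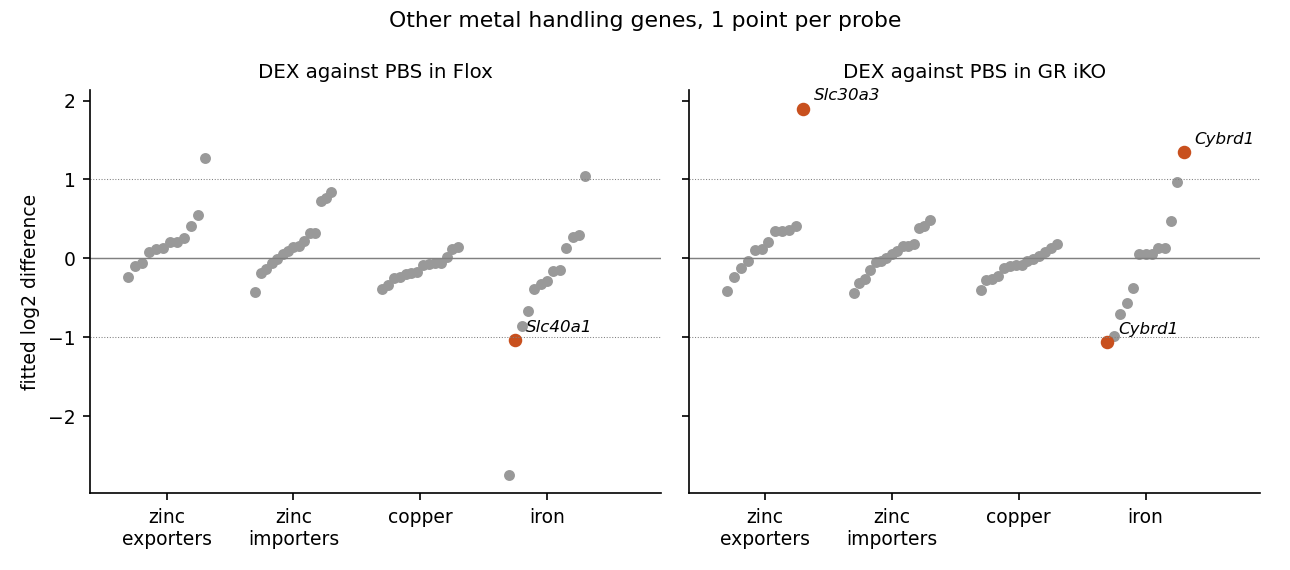
Fitted log2 differences with DEX (vertical axis) of the 54 probes of other metal handling genes in 4 lists (horizontal axis) for Flox mice (left) and GR iKO mice (right), with called probes in orange and dotted lines at 2-fold. *Slc40a1* is the called probe in Flox mice at −1.03, and the lowest gray point is *Hamp* at −2.74 (limma adjusted p = 0.16), named after its value was seen and not well above background in Flox mice given DEX.

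The genes whose values followed a member most closely over the 14 arrays were taken from 20707 probes of other named genes. For *Mt1* probe 1 they were *D930028M14Rik* (r = 0.906), *Slc36a3* (0.901), *Carns1* (0.896), *Apbb1ip* (0.874) and *Gabrr1* (0.865), against a median r of 0.00724 over all these probes. For *Mt2* they were *Smpd1* (0.942), *Sesn1* (0.937), *Hipk3* (0.929), *Tcp11l2* (0.916) and *Ube3a* (0.911), against a median of 0.0458. For *Slc30a10* probe 1 they were *Hsd17b2* (0.934), *Mapk9* (0.931), *Adamtsl5* (0.927), *Kazn* (0.916) and *Pygb* (0.905), against a median of −0.0234. The 3 sets of genes do not overlap, and these values mix the 4 groups and are given without a test. *Sesn1* had fitted DEX differences of 1.58 for Flox and 0.83 for GR iKO, and *Hsd17b2* of −1.26 and −0.46. Among the members, *Mt2* and *Slc30a10* probe 1 had r = −0.641, and *Mt1* probe 1 and *Slc30a10* probe 1 had r = 0.0196.

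The tissue held the epithelium its label names, with all 8 epithelium markers well above background on every array and *Krt8* the brightest. Their summed level, in multiples of the 75th percentile with the listed genes each counted once, ranged from 1129 to 1359, and 0 of 8 were called in any comparison. The sums of absorptive colonocyte markers (600 to 788) and goblet cell markers (942 to 1531) also varied less than 2-fold, with *Guca2a* and *Clca1* as the brightest genes. Among them *Slc9a3* was called higher with DEX in Flox mice (1.71, limma adjusted p = 0.00512) and lower under DEX when GR iKO is set against Flox (−1.81, adjusted p = 0.0157). Of 7 glucocorticoid-induced genes on the array, 4 were called in the DEX comparison of Flox and 2 in that of GR iKO, all higher, and *Sgk1* was the brightest. *Tsc22d3* and *Pdk4* were called in both genotypes (1.91 and 3.35 for Flox, 1.61 and 3.49 for GR iKO), and *Fkbp5* and *Sgk1* (3.65 and 3.22) in Flox mice, where their differences between the responses were also called (−2.71 and −2.56, limma adjusted p = 0.0436 for both).

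Markers of other cells and of neighboring tissue moved with the groups as well, and their part in the member values was not tested. The sum of 9 exocrine pancreas markers, led by *Clps*, was 1747 and 2029 in Flox mice 1 and 2 given DEX, 644 in Flox mouse 2 given PBS, 28.6 to 216 in GR iKO mice given DEX and 5.21 to 19.0 in the other mice, and 0 of 9 were called. Flox mouse 4 given DEX, with a sum of 16.2, had the lowest *Mt1* probe 1 and *Mt2* values of its group (5.19 and 6.44), the highest *Slc30a10* probe 1 value (−2.84) and the lowest *Slc39a5* value of all mice. Flox mouse 2 given PBS had the lowest *Mt1* probe 1 and *Mt2* values of all mice (3.34 and 3.62). It also had the lowest *Slc39a5* value of its group (0.20). The highest *Slc39a5* value of all mice (0.71) was that of GR iKO mouse 2 given PBS, with a pancreas marker sum of 7.07. Paneth cell markers (4 of 6 on the array, led by *Ang4*) summed to 60.9 to 256 and 107 to 131 for Flox with PBS and DEX, and to 31.5 to 82.1 and 167 to 300 for GR iKO, where in the DEX comparison *Itln1* (5.18) and *Ang4* (2.82) were called higher and *Lyz1* (−1.05) lower. The sum of 8 small intestine markers, led by *Fabp2*, was 44.6 to 203, with *Lct* called higher with DEX in both genotypes (3.83 and 4.29) and *Slc10a2* in Flox mice (5.79). Smooth muscle markers, led by *Cnn1*, summed to 347 to 414 and 503 to 643 for Flox with PBS and DEX, and to 411 to 491 and 372 to 593 for GR iKO. Fibroblast markers, led by *Dcn*, summed to 65.1 to 105 and 56.8 to 71.3 for Flox, and to 83.8 to 96.1 and 69.7 to 83.6 for GR iKO, with 0 of 6 called in both lists. Macrophage markers, led by *Cd14*, summed to 7.06 to 11.3 and 5.64 to 6.72 for Flox with PBS and DEX, and to 7.97 to 10.3 and 5.68 to 7.31 for GR iKO. B and plasma cell markers, led by *Jchain*, summed to 41.4 to 90.3 and 39.9 to 48.1 for Flox, and to 43.3 to 89.6 and 66.5 to 98.7 for GR iKO, with 0 of 6 called in both lists. The sum of the latter list follows *Jchain*, and the median difference of its genes was −0.94 in the DEX comparison of GR iKO and 1.01 for the genotypes with PBS, opposite to the group means of the sum (60.3 with PBS and 79.0 with DEX for GR iKO, 73.3 with PBS for Flox). T cell markers (5 of 6 on the array, led by *Cd3d*) summed to 0.337 to 0.547 and 0.339 to 0.439 for Flox with PBS and DEX, and to 0.552 to 0.874 and 0.492 to 0.551 for GR iKO, above Flox without overlap under both treatments, with *Cd3g* (−1.17) and *Cd8a* (−1.81) called lower with DEX in GR iKO mice.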

How the data were processed

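The authors deposited, for each of the 14 arrays, the scanner intensity of every spot after background subtraction and detrending, and a log2 table of the series; Agilent Feature Extraction and Partek 6.6 are named in the submitters' processing notes. The deposited log2 values have nearly identical sorted columns (largest difference 0.0024), as quantile normalization between arrays gives, and were used as an alternative. Intensities were log2 transformed, averaged over the spots of a probe without an outlier flag and reduced by the 75th percentile of the array. Probes were matched to genes through RefSeq accessions. Groups came from the deposited sample names, since the treatment text describes DEX for all samples. All 4 groups were fitted together with lmFit and eBayes of limma 3.58.1 (R 4.3.3), with Benjamini-Hochberg adjustment over all probes. Differences against a group in which a probe was not well above background on any array are fitted values that can depend on the background correction. They are not lower bounds. The members and the gene lists were chosen with earlier results of these data known. The named genes are all members, *Nr3c1*, list genes that were called or among the 3 largest differences of a comparison while well above background in the brighter group, the brightest and the called genes of the marker and glucocorticoid lists, and the 5 genes closest to *Mt1*, *Mt2* and *Slc30a10* by Pearson r. For marker sums, spots with an outlier flag were kept so that each array has a sum. *Zbtb16*, *Ms4a12*, *Trac*, *Defa24* and *Defa17* have no named probe on the array. Other settings tried were the array median, quantile normalization, background correction by normexp (offset 50), the deposited log2 table, a filter on dim probes, outlier spots kept, 3 blocks of array rows normalized separately, a replicate block, only the groups compared, no fold minimum, a t-test, and each array left out in turn. The paper's Methods name the t-test for small samples in general and refer to a supplement, not read here, for the arrays. Probe sequences were not used here.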

Additional observations from a re-analysis of the deposited data

Results flagged for a closer look

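In groups of 4 arrays, a mouse was looked for whose gap to the nearest other mouse, over the range of its group, passed the critical value of Dixon's test for 4 values. Chance gives this in about 1 in 20 groups, so 4.2 of the 84 groups examined would be expected by chance, and 8 were found. GR iKO DEX mouse 4 had an *Mt2* value of 6.62, with 5.76 to 5.90 for its 3 group mates (gap over range 0.84). The same mouse had −5.52 for *Mt4* probe 2, with −7.71 to −7.36 for the rest (0.838), and was the only array of its group with that probe well above background. Flox PBS mouse 3 had −0.23 for *Mtf1* probe 2, with −0.84 to −0.80 for the rest (0.931). GR iKO DEX mouse 1 had 6.16 for *Slc39a4*, with 6.63 to 6.65 for the rest (0.96). Among the other metal handling genes, *Slc30a2* was −6.69 in GR iKO DEX mouse 3 against −5.50 to −5.28 (0.846), and *Tfrc* was 1.72 in Flox PBS mouse 3 against 2.24 to 2.32 (0.873). The sum of smooth muscle markers was 372 in GR iKO DEX mouse 1 against 571 to 593 (0.904), and that of exocrine pancreas markers was 644 in Flox PBS mouse 2 against 7.88 to 19.0 (0.983). No explanation was tested for any of these values.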

How the results depend on the processing

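Of the 60 fitted differences of the member probes between groups, 13 were at least 2-fold, with 11 to 15 under 7 of 8 other settings and 12 to 15 with each array left out. Normexp background correction gave 7. Of 1640 member values under other settings, 1613 moved by less than 1 SD between replicates, 25 moved by more (18 of them with normexp) and 2 reversed, a word used here only where the first value was at least 2-fold. Both were *Slc30a10* probe 2 with normexp, 0.0563 in place of −1.92 with DEX in Flox mice and −0.345 in place of 1.28 between genotypes under DEX. Smaller differences also changed sign with normexp, among them *Mt4* probe 2 with DEX in Flox mice (0.71 in place of −0.75), *Mtf1* probe 3 in that comparison (0.85 in place of −0.11) and the difference of the responses of *Slc30a10* probe 2 (−0.63 in place of 0.49). The cause was not tested. *Mt1* probe 1 kept a DEX difference of 1.46 to 1.66 in Flox mice and a genotype difference under PBS of 2.61 to 2.66 under the 8 settings, and *Mt2* a DEX difference of 2.30 to 2.52 in Flox mice.

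The count of called probes among other metal handling genes with DEX in Flox mice was 1. It was 0 with normexp, with the replicate block, with only the groups compared and with a t-test after Benjamini-Hochberg adjustment, and 3 with that t-test unadjusted. It ranged from 0 to 1 with an array left out (0 without Flox PBS mouse 3 or 4 or without any Flox DEX mouse). Without Flox PBS mouse 1 *Slc40a1* was not called (−0.98, limma adjusted p = 0.0541), so the count of 1 there is a different probe. With DEX in GR iKO mice the count was 3. It was 0 with normexp, 1 with the replicate block and 9 with no fold minimum, and it ranged from 0 to 4 with an array left out (0 without GR iKO PBS mouse 3 or 4 or GR iKO DEX mouse 2, and 1 without GR iKO DEX mouse 3 or 4). Between the genotypes under DEX the count was 0, and 1 with the unadjusted t-test. It was 0 under all settings run between the genotypes under PBS and for the difference of the responses. After group means were removed, 18 same-numbered pairs of arrays had r of −0.107 to 0.182 (median 0.0544, 5 pairs over 0.1) and 55 other pairs −0.241 to 0.153 (median −0.00981). Whether the replicate numbers pair mice is not settled by these values. A slide block was not run, since each slide holds 1 group, and normexp used median spot intensities, since the files hold no mean. The t-test and the fit of only the groups compared have no form for the difference of the responses. Probes near background limit *Mt4* probe 2, *Mtf1* probe 3, *Slc30a10* probe 2 and *Slc30a3*.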
